A study of Mus musculus with 21 samples.

Results

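The Ccnd1 and Fgf15 locus lies at the distal end of mouse chromosome 7, and its copy number was read in 21 liver tumours. It was taken as every non-control array probe from the chosen start to the end of the chromosome, which gave 188 probes of 96579 over the last 3.51 Mb of probed sequence (chr7:149005073-152507860, mm9 build). The genes of interest were Ccnd1, Fgf15, Fgf3 and Fgf4, and of these 4 genes 3 had a probe named for them, 4 probes in all. The core of the locus was defined as the 13 probes from 100 kb before the first to 100 kb after the last of those 4 probes (chr7:151925035-152218403), and the rest of chromosome 7 had 5798 probes.

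Genomic DNA from fixed, paraffin-embedded liver tumours of C57BL/6 mice was labelled with Cy3 and hybridized against a Cy5-labelled reference, named in the labels as a pool of liver tails (array comparative genomic hybridization). Every mouse had been kept for 12 months on CD-HFD, a high-fat diet without choline on which fatty liver disease, non-alcoholic steatohepatitis (NASH) and liver cancer develop. The anti-PD1 group (12 tumours, 7 mice) then received 8 weeks of an antibody against PD1, a receptor on T cells. The CD-HFD group (9 tumours, 7 mice) did not receive it. Mice were read from the leading number of the sample names, although the labels count each tumour as its own mouse, so tumours of a mouse were averaged and mice were the replicates. There was no dye swap, the tumour cell content of the sections is not given, and array design differed between slide 1 (8 tumours) and slides 2 and 3 (13 tumours).

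Ccnd1 encodes cyclin D1, which binds CDK4 and CDK6 so that the retinoblastoma protein is phosphorylated and cells enter S phase. Fgf15 is the mouse counterpart of human FGF19, a hormone from the ileum that acts in the liver through FGFR4 and β-Klotho and represses Cyp7a1, the rate-limiting enzyme of bile acid synthesis. Fgf3 and Fgf4 encode growth factors mainly active in development. The syntenic human region is a recurrent amplicon in hepatocellular carcinoma, which is why a gain or loss here was of interest.

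The 2 Ccnd1 probes, both in the 3′ untranslated region, were carried by different array designs: slide 1 had the probe at chr7:152116966-152117015, and slides 2 and 3 had the probe at chr7:152118344-152118403, 1.38 kb away. Fgf3 (chr7:152025035-152025094, intron) and Fgf15 (chr7:152082668-152082715, coding exon, also overlapped by the transcript Gm26793) were measured on slides 2 and 3 alone. No probe was named for Fgf4, but an unnamed probe of slide 1 (chr7:152035433-152035492) lies in an Fgf4 intron by its exact match to the GRCm38 genome. The sequences of the 3 probes outside untranslated regions are shown because the Fgf readings rest on them alone. Capitals mark CG dinucleotides, of which the Fgf3 probe holds 2 and the other probes 0, and GC content was 36.7% for Fgf3, 38.3% for the Fgf4 intron and 47.9% for Fgf15.
Fgf3: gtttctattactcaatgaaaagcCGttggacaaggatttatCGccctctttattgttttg
Fgf4 intron: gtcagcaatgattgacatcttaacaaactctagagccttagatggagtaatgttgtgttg
Fgf15: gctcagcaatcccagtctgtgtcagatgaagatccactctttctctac

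Values are log2 ratios of tumour over reference, centred on the median of each array, so that 0 is the typical probe. A gain from 2 to 3 copies in every cell would give 0.58 and a loss to 1 copy −1. Per array, at least 65.0% of tumour-channel spots were well above background (median 96.5%). The lowest arrays were mouse 608 lesion 1 (65.0%) and mouse 1770 lesion 1 (82.1%), and results that move without them are given so. The noise between neighbouring probes was 0.41 to 0.68.

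The locus read lower than the rest of chromosome 7 in 21 of 21 tumours, and no gain of it was seen in either group. The mean log2 ratio of the locus was −0.29 ± 0.079 (SD, n = 7 mice) in anti-PD1 mice and −0.28 ± 0.066 (n = 7) in CD-HFD mice. Tumours ranged from −0.53 through a median of −0.33 to −0.06 in the anti-PD1 group and from −0.42 through −0.31 to −0.07 in the CD-HFD group, so the groups overlapped, with the lowest tumour in the anti-PD1 group. The rest of chromosome 7 was at −0.07 ± 0.036 (SD, n = 14 mice). Of the 188 locus probes, 134 (71.3%) had a mean below 0, as did 57.8% of the other chromosome 7 probes.

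Locus minus rest of chromosome 7 was −0.21 ± 0.052 (SD, n = 14 mice), and the 14 mice lay between −0.27 and −0.11. The difference from 0 was larger than the spread between mice (two-sided exact sign-flip permutation test, p = 0.000122, the smallest this test can give, and 0.00098 adjusted over 8 tests). The same comparison at the end of the 19 autosomes, over the same length, put 6 of 19 ends below the rest of their chromosome in all 14 mice (31.6%). The end of chromosome 7 ranked 2 of 19 from the lowest, after chromosome 4 (−0.24 ± 0.095) and just below chromosome 11 (−0.20 ± 0.099), chromosome 15 (−0.20 ± 0.046) and chromosome 2 (−0.19 ± 0.081). These neighbours in the order differed by less than the spread between mice.

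GC content moved with these values. The 50 kb around the locus probes held 48.9% GC against 44.5% for the rest of chromosome 7, which placed it at 3 from the top of the 19 ends, while the probes themselves differed little (37.3% against 36.7%). With a quadratic fit on probe GC content, locus minus rest was −0.18 ± 0.046. With the fit on probe and 50-kb GC content it was −0.05 ± 0.038 (SD, n = 14 mice), below 0 in 12 of 14 mice and 19 of 21 tumours (exact sign-flip permutation test, p = 0.0012). This remainder differed between array designs. Tumours of slide 1 then lay between −0.13 and −0.06, and those of slides 2 and 3 between −0.08 and 0.02. The chromosome 7 end then ranked 3 of 19 from the lowest, after chromosomes 17 (−0.08) and 15 (−0.05).

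**Figure D1:**
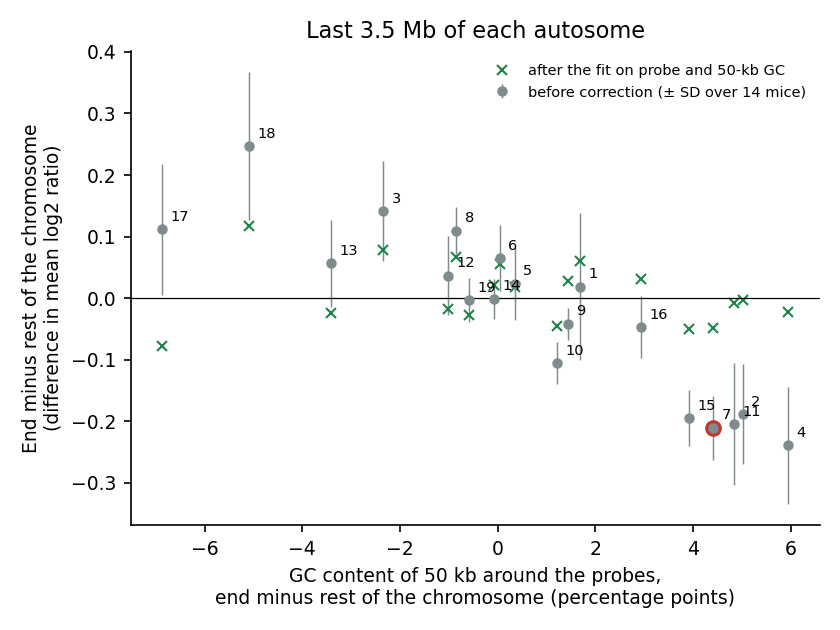
The mean log2 ratio of the last 3.51 Mb of each autosome minus the rest of that chromosome (y axis, 14 mice, bars are SD) against the difference in GC content of the 50 kb around the probes (x axis, percentage points); numbers name chromosomes and chromosome 7 is ringed in red. The 5 lowest ends before correction (chromosomes 2, 4, 7, 11 and 15) lie at the right, where GC content exceeds that of the rest, and the crosses, which give each end after the fit on probe and 50-kb GC content, have chromosome 7 at −0.05.

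Along the locus the mean level over both array designs was lowest in the first window and highest in the last. The first holds H19 and Igf2 beside genes proximal to them. In windows of 1 Mb from the proximal to the distal end, the mean over 14 mice was −0.39 ± 0.092, −0.25 ± 0.059, −0.27 ± 0.14 and −0.17 ± 0.16 (SD), against a median of 0.06 and a 5th percentile of −0.22 over all 2224 windows. The first and second windows were below 0 in 21 of 21 tumours, which 2.83% of all windows were. The third, which ends inside the core, was below 0 in 20 tumours and the last, which holds the 4 probes named for Ccnd1, Fgf15 and Fgf3, in 15. The lowest value of the third was −0.82 in mouse 2064 lesion 2 (CD-HFD), on the array with the most noise (0.68). This profile differed between array designs. On slide 1 the first window was the lowest in every tumour, and the last was below the third except on the 2 dimmest arrays. On slides 2 and 3 the last was above the third except in mice 1109 and 822. There the first was not always the lowest (mouse 2088, −0.35 against −0.37 in the third).

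**Figure D2:**
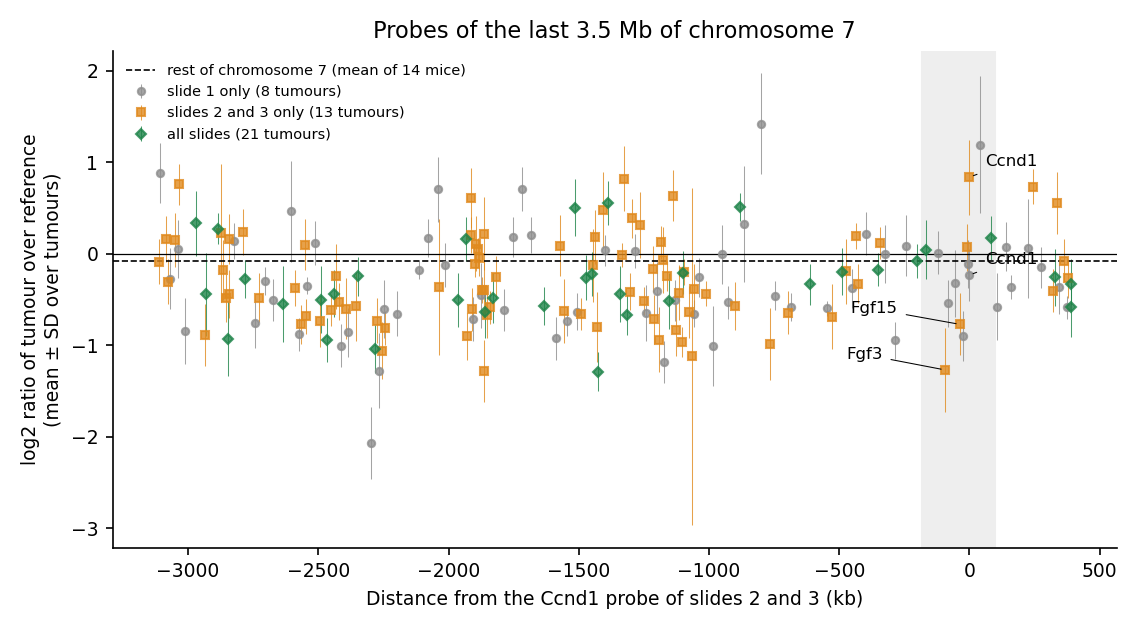
Mean log2 ratio of tumour over reference (y axis, bars are SD over tumours) of the 188 locus probes against distance in kb from the Ccnd1 probe of slides 2 and 3 (x axis); colours give the slides that carry a probe, the dashed line is the rest of chromosome 7, and the core is shaded. Single probes scatter widely around the locus mean, and the 2 Ccnd1 probes stand at 0.84 and −0.23.

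Ccnd1 read above the reference on the probe of slides 2 and 3 and, before correction for GC content, below it on the probe of slide 1. On slide 1 the Ccnd1 probe was at −0.35, 0.25, −0.63 and −0.24 in the 4 anti-PD1 tumours and at 0.09, −0.49, −0.23 and −0.26 in the 4 CD-HFD tumours. The 2 tumours above 0 were those of the 2 dimmest arrays, and the groups overlapped. On slides 2 and 3 the probe ranged from 0.13 through a median of 0.92 to 1.72 in 8 anti-PD1 tumours, and was 0.59, 1.05, 1.08, 0.58 and 0.44 in 5 CD-HFD tumours. It was above 0 in 13 of 13 tumours, as 19.2% of all probes of that design were, and the highest value was that of mouse 2094 lesion 2.

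Over both designs the gene-level log2 ratio of Ccnd1 was 0.48 ± 0.52 (SD, n = 7 mice) in anti-PD1 and 0.32 ± 0.55 (n = 7) in CD-HFD mice. The group difference was 0.20 ± 0.27 (SE; limma, adjusted p = 0.999). On slides 2 and 3 alone it was 0.15 ± 0.20 (SE; limma, adjusted p = 0.73). The 2 probes lie 1.38 kb apart and their means over tumours were −0.23 and 0.84, on different slides and tumours, so neither level can be read as a copy number. After the fit on probe and 50-kb GC content the slide 1 probe turned to 0.16, above 0 in 7 of 8 tumours, and the other stood at 0.92, above 0 in 13 of 13.

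Fgf15, the hormone gene, was below 0 in 13 of 13 tumours, as 21% of all probes of its design were. Its log2 ratio ranged from −1.21 through −1.01 to −0.37 in 8 anti-PD1 tumours and was −0.61, −0.83, −0.39, −0.31 and −0.95 in 5 CD-HFD tumours. The 4 lowest values were those of mouse 2094 lesions 3 and 1, mouse 2097 and mouse 1109, all anti-PD1, but the groups overlapped. The mouse means were −0.86 ± 0.30 (SD, n = 6) and −0.59 ± 0.30 (n = 4), a difference of −0.25 ± 0.16 (SE; limma on slides 2 and 3, adjusted p = 0.451). After the fit on probe and 50-kb GC content the mean of the Fgf15 probe over 10 mice was −0.08, where it was −0.75 before.

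Fgf3 gave the lowest reading of the core. It ranged from −2.03 through −1.29 to −0.63 in 8 anti-PD1 tumours and was −1.04, −1.58, −1.31, −0.68 and −1.76 in 5 CD-HFD tumours, below 0 in 13 of 13. The group means were −1.19 ± 0.41 (SD, n = 6 mice) and −1.27 ± 0.44 (n = 4). The limma fit, which takes single tumours with mouse as a random block and not mouse means, gave a difference of −0.0043 ± 0.22 (SE, adjusted p = 0.994). Only 0.36% of the probes of its design had a lower mean, and after the GC fit it still stood at −0.96.

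The probe in the Fgf4 intron read −0.52, −0.07, −0.57 and −0.58 in the 4 anti-PD1 tumours of slide 1 and −0.36, −0.97, −0.54 and −0.71 in the 4 CD-HFD tumours. All 8 values were below 0, as for 22.1% of the probes of that design. The mouse means were −0.47 ± 0.14 (SD, n = 3) and −0.64 ± 0.086 (n = 3), and the group difference at this probe was not tested.

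On slides 2 and 3 the order of the readings was Ccnd1, Oraov1, Fgf15 and Fgf3 from high to low. Oraov1, also named Lto1, is a conserved neighbour of Ccnd1 with a role in ribosome biogenesis. Ccnd1 exceeded Oraov1 in 13 of 13 tumours and Oraov1 exceeded Fgf15 in 13 of 13, while Fgf15 exceeded Fgf3 in 12 of 13. With the fit on probe and 50-kb GC content Fgf15 exceeded Oraov1 in 5 of 13 tumours, and the other two orders held in 13 of 13. Such an order describes probes, since the mean of a probe varied between probes with an SD of 0.51 on either design while a probe varied between tumours with a median SD of 0.25 to 0.26. In the core the SD between probe means was 0.67, and the highest, an unnamed probe 40.9 kb from Ccnd1, ranged from 0.06 to 2.26.

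**Figure D3:**
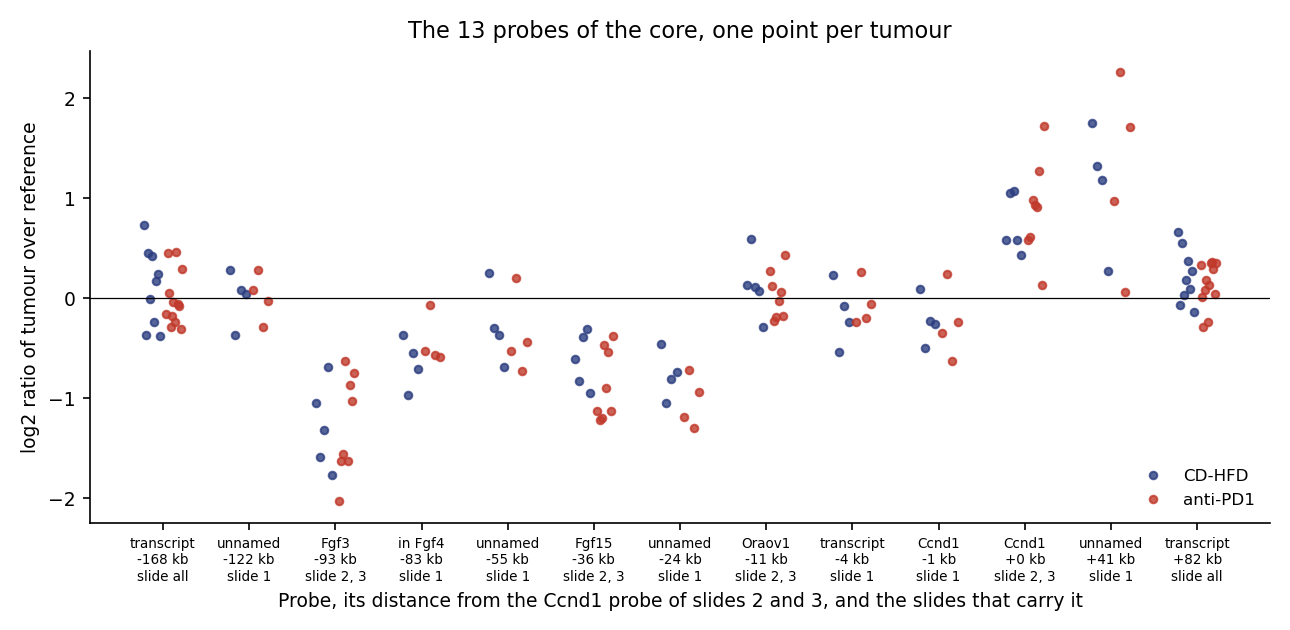
Log2 ratio of tumour over reference (y axis) of the 13 core probes, 1 point per tumour, anti-PD1 in red and CD-HFD in blue; the x axis names each probe, its distance in kb from the Ccnd1 probe of slides 2 and 3, and the slides that carry it. Levels differ from probe to probe with an SD of 0.67 between probe means, and the ranges of the groups overlap at all 13 probes.

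The level of the core against the rest of chromosome 7 depended on which probes were taken. Core minus rest was −0.07 ± 0.16 (SD, n = 14 mice), below 0 in 7 of 14 mice, and the test did not pass (exact sign-flip permutation test, p = 0.157, adjusted 0.418). The same exact test passed below 0 with no margin (−0.28, p = 0.000122), with a wider margin (−0.09, p = 0.0078) and without the highest core probe (−0.12, p = 0.0162). It passed above 0 with the 2 core probes that both designs share (0.20, p = 0.0015). These 2 probes lie in the margins, and neither is named for Ccnd1 or an Fgf gene. Tumours lay between −0.42 (mouse 822) and 0.31, 10 above 0 and 11 below. The 3 highest were mouse 1770 lesion 1 (0.31 ± 0.22, SE over probes), mouse 2094 lesion 2 (0.31 ± 0.35) and mouse 608 lesion 1 (0.27 ± 0.27), of which 1770 lesion 1 and 608 lesion 1 are the 2 dimmest arrays. Without these 2 arrays core minus rest was −0.10 (exact sign-flip permutation test, p = 0.0503). No tumour reached 0.58. The SE over probes takes in differences in level between probes and not only the error of a reading.

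Core minus the other probes of the locus was 0.15 ± 0.14 (SD, n = 14 mice), above 0 in 12 of 14 mice and 18 of 21 tumours (exact sign-flip permutation test, p = 0.0033, adjusted 0.0132). This test covers the spread between mice only, and at most 9 core probes were read in each of them. With the margin around the named probes set to 0 kb the sign turned, to −0.07 (p = 0.102).

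GC content moved with the core too. After the fit on probe and 50-kb GC content, core minus rest was 0.16 ± 0.10 (SD, n = 14 mice), above 0 in 13 of 14 mice and 20 of 21 tumours (exact sign-flip permutation test, p = 0.00049). Over the 14 mice, core minus rest followed the array-wide slope of log2 ratio on 50-kb GC content (Pearson r = 0.878, Spearman rho = 0.820), a description over points that share arrays and reference. For locus minus rest r was 0.596 and rho 0.697. The slope was −0.35 ± 0.12 per 10 percentage points (SD, n = 14 mice) and ranged from −0.58 to 0.03 over tumours. What part of the locus and core values comes from GC content of the DNA and what part from copy number was not tested.

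**Figure D4:**
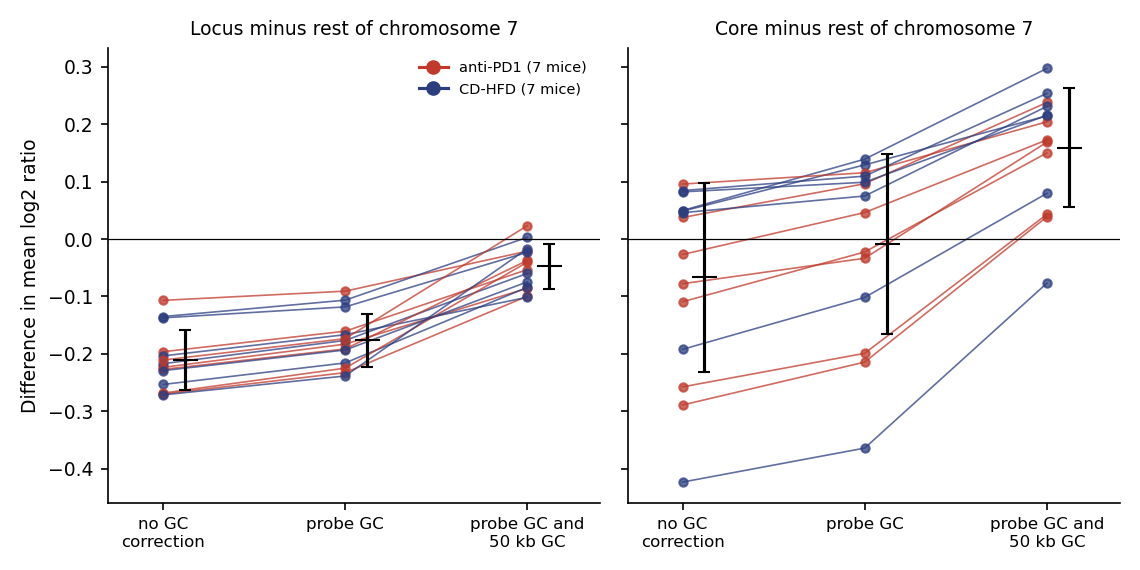
Locus and core minus the rest of chromosome 7 (y axis, difference in mean log2 ratio) in each of the 14 mice without correction, after a fit on probe GC content and after a fit on probe and 50-kb GC content; bars are mean ± SD. The locus mean moves from −0.21 to −0.05 and the core mean from −0.07 to 0.16, with both groups intermixed.

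Anti-PD1 and CD-HFD mice overlapped at the locus, and no test between them passed. Locus minus rest was −0.21 ± 0.055 (SD, n = 7 mice) against −0.21 ± 0.053 (n = 7), which differed by −0.0079 (exact permutation of 7 against 7 mice, two-sided, p = 0.798, adjusted 0.912, where 0.000583 is the smallest possible). For the log2 ratio of the locus itself the difference was −0.01 (exact permutation test, p = 0.758, adjusted 0.912). Core minus rest was −0.09 ± 0.14 and −0.04 ± 0.19, a difference of −0.05 (exact permutation test, p = 0.624, adjusted 0.912).

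Within slides, the differences in locus minus rest were −0.0066 on slide 1 and −0.05 on slide 2 (exact permutation tests with 3 mice a group, p = 0.7 and 0.4, where 0.1 is the smallest possible). On slide 3, with 4 anti-PD1 mice and 1 CD-HFD mouse, it was 0.08 and was not tested. For core minus rest they were 0.02 on slide 1 (p = 1) and −0.22 on slide 2 (p = 0.4) by the same exact permutation test. On slide 3 the core difference was 0.40, against the single mouse 822.

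**Figure D5:**
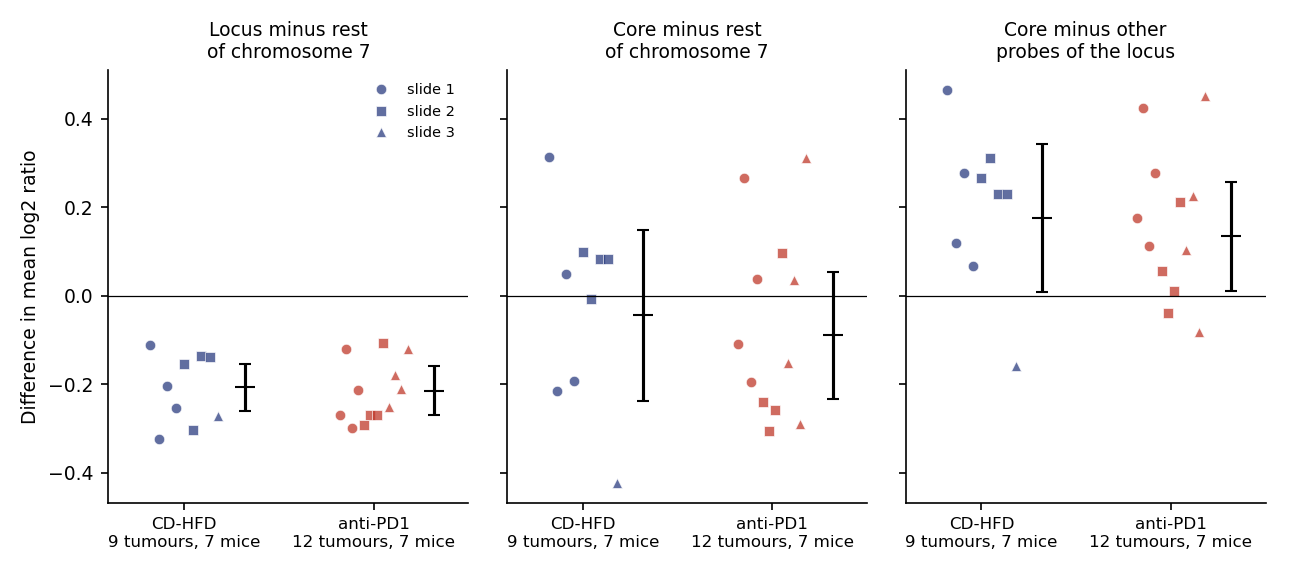
Difference in mean log2 ratio (y axis) of the locus and of the core against the rest of chromosome 7, and of the core against the other locus probes, 1 point per tumour with the shape giving the slide; bars are mean ± SD over 7 mice a group. All 21 tumours are below 0 in the left panel, from −0.32 to −0.11, and both groups overlap in each panel.

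Lesions of 1 mouse gave different readings at the locus, and whether these differences exceed the error of a reading was not tested. In the 5 mice with several tumours, locus minus rest spanned 0.03 (mouse 612) to 0.21 (mouse 1770). Core minus rest spanned 0.0032 in mouse 612 and 0.11 in mouse 2064, but 0.46 in mouse 608, 0.53 in mouse 1770 and 0.62 in mouse 2094. The 2 widest spans of locus minus rest, in mice 1770 and 608, each involve 1 of the 2 dimmest arrays. In mouse 1770 the SE over probes was 0.060 and 0.055 for the locus and 0.22 and 0.23 for the core (lesions 1 and 4). This SE takes in the offsets between probes, which lesions on the same design share, so it is not the error of their difference. After the fit on probe and 50-kb GC content both its lesions, read on slide 1, were at −0.06. In mouse 608 lesions 1 and 6, also on slide 1, were then at −0.12 and −0.13. Its lesion 3 was at −0.01, but on slide 3 and so on the other array design. The lesions of mouse 612 were on slides 1 and 3, whose designs share only 2 core probes.

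Segmentation placed Ccnd1 in segments longer than the locus. Segments of at least 10 probes were called as gains or losses at an absolute mean of at least 0.2, and 12 of 21 tumours had Ccnd1 in a called loss, with means from −0.39 to −0.20 and lengths from 4.56 to 24.8 Mb. No tumour (0 of 21) had it in a called gain. Over all tumours 12% of probes lay in losses and 10.4% in gains. No segment over Ccnd1 began inside the locus, and in 5 of the 9 tumours without a call it was the whole of chromosome 7. A segment needed 10 probes while the core has 9 on slide 1 and 6 on slides 2 and 3, so a change limited to the core could not be called.

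Called losses over Ccnd1 were found in 8 of 12 anti-PD1 and 4 of 9 CD-HFD tumours. The mean share per mouse was 69.0 ± 36.6% (SD, n = 7) against 42.9 ± 45.0% (n = 7), 26.2 percentage points apart (exact permutation of 7 against 7 mice, two-sided, p = 0.272, adjusted 0.543). At an absolute mean of 0.1 the difference was −9.52 percentage points. After the fit on probe and 50-kb GC content the losses were 0 of 21, where 3.09% of probes over all tumours still lay in losses and 4.61% in gains.

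The neighbours that the human amplicon often carries were mostly a little below the reference. Of 12 genes listed, 11 had a named probe (Lto1 only as Oraov1), and 10 of the 11 (90.9%) had a mean below 0. That held for 83.6% of all 67 gene labels of the locus and for 51.4% of all genes. The median of the list was −0.21, against −0.29 for the locus labels and −0.01 for all 23249 genes. Shank2, a synaptic scaffold gene (−0.51 ± 0.11, SD, n = 14 mice), was the lowest, below 0 in 21 of 21 tumours. Mrgprd (−0.47 ± 0.25) and Mrgprf (−0.39 ± 0.25), receptors at the very end of the chromosome, and Dhcr7 (−0.37 ± 0.20), which makes the last step of cholesterol synthesis, followed.

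Nadsyn1, of NAD synthesis, was at −0.32 ± 0.18. Cttn, which encodes the actin regulator cortactin, was at −0.21 ± 0.13 (SD, n = 14 mice) and Fadd, the death receptor adaptor, at −0.15 ± 0.16. Ano1, a chloride channel (−0.06 ± 0.13), Ppfia1 (−0.06 ± 0.13) and Oraov1 (0.00042 ± 0.22, n = 10 mice) lay near 0. Tpcn2, an endolysosomal cation channel, had a mean near 0 (−0.04 ± 0.29) but ranged from −0.65 to 0.46, above 0 in 13 tumours and below in 8. After the fit on probe and 50-kb GC content it stood at 0.32. The fit on probe and 50-kb GC content gave a median of −0.0082 over the list.

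Most genes of the imprinted domain were below the reference, as were most genes of the whole locus. Of 20 listed genes 19 had a named probe, and 17 of 19 (89.5%) had a mean below 0, near the 83.6% of all 67 gene labels of the locus. The median was −0.29, as over those 67 labels. Ins2, an insulin gene (−0.99 ± 0.29, SD, n = 10 mice), Igf2, the fetal growth factor (−0.91 ± 0.23, n = 14), and Phlda2, a placental growth regulator (−0.74 ± 0.33, n = 10), were the lowest. Igf2 was below 0 in 21 of 21 tumours, and on both designs.

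Between −0.7 and −0.4 lay Tssc4 (−0.68), the taste-transduction channel gene Trpm5 (−0.60), the noncoding RNA gene H19 (−0.57), Osbpl5 (−0.55), the tyrosine hydroxylase gene Th (−0.51) and Ascl2 (−0.49). Cars (−0.29), the CDK inhibitor gene Cdkn1c (−0.26), Cd81 (−0.22), Tnfrsf26 (−0.20), the potassium channel gene Kcnq1 (−0.19), Slc22a18 (−0.12), Tnfrsf23 (−0.10) and Tspan32 (−0.03) were nearer 0. Nap1l4, a histone chaperone gene, was above 0 in 21 of 21 tumours (0.43 ± 0.18, SD, n = 14 mice), and Tnfrsf22 was at 0.24 ± 0.19. After the fit on GC content H19 stood at −0.0019 and Igf2 at −0.75, and the median of the list was −0.14.

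Among the 11 locus genes with at least 2 probes on each design, Lsp1 (−0.65 ± 0.16, SD, n = 14 mice), which encodes a leukocyte actin-binding protein, Osbpl5 and Shank2 were the lowest. Nap1l4, the transcript ENSMUST00000105902 (−0.03 ± 0.39) and Tpcn2 were the highest. Of all 67 gene labels with a probe in the locus, 56 (83.6%) had a mean below 0.

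No locus gene, window or probe differed between the groups at an adjusted p of 0.05. Of 38 locus genes that could be fitted over both designs 0 were called and 1 (ENSMUST00000152910, 0.21 ± 0.097, SE) had an unadjusted p under 0.05, where 0% of all 13300 genes were called and 2.5% had such a p (limma). Differences ran from −0.19 (Ascl2) to 0.21, with 18 of 38 above 0. In the 4 windows they were 0.0039 ± 0.063, −0.05 ± 0.054, 0.03 ± 0.077 and −0.0047 ± 0.086 (SE; limma, adjusted p = 0.999 for each), and 0% of all windows were called and 0.899% had an unadjusted p under 0.05. On slides 2 and 3 alone 0% of all 21197 genes were called and 15.5% had an unadjusted p under 0.05, and among the listed genes of the locus 0 were called (limma). There 1 of 11 amplicon neighbours had such a p, Ppfia1 (0.22 ± 0.08, SE, adjusted p = 0.240). Of 19 imprinted genes 3 did, Cdkn1c (0.40 ± 0.11, SE, adjusted p = 0.193), Phlda2 (0.44 ± 0.16, SE, adjusted p = 0.239) and Nap1l4 (−0.23 ± 0.10, SE, adjusted p = 0.293). That fit left slide out, although slide 3 held 4 anti-PD1 mice and 1 CD-HFD mouse. With slide as a block the unadjusted p was 0.092 for Nap1l4, 0.011 for Ppfia1, 0.0065 for Cdkn1c and 0.020 for Phlda2 (limma). Of 35 locus probes carried by every array 0 were called and 0 had an unadjusted p under 0.05, with differences from −0.22 to 0.19, where 0% of all 12730 probes were called and 7.82% had an unadjusted p under 0.05.

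Genes of the FGF15 pathway elsewhere in the genome gave no calls either. All 14 listed genes had a named probe, 9 could be fitted over both designs, and 0 were called with 0 at an unadjusted p under 0.05 (limma). Their means had a median of 0.06, and 6 of 14 were below 0. Among the 9 fitted over both designs the largest group differences were those of Fgfr1 (0.17 ± 0.13, SE), Fgfr3 (−0.15 ± 0.13), the receptor adaptor Frs2 (0.05 ± 0.15, but −0.17 over spots well above background) and the ileal bile acid transporter Slc10a2 (−0.05 ± 0.11), each with a limma adjusted p of 0.999. On slides 2 and 3 alone 0 of 14 were called and 3 (21.4%) had an unadjusted p under 0.05, where 15.5% of all genes did. These were Nr0b2, a repressor of bile acid synthesis (0.31 ± 0.11, SE, adjusted p = 0.237), the hormone gene Fgf21 (−0.38 ± 0.16, adjusted p = 0.274) and Fgfr1 (0.23 ± 0.10, adjusted p = 0.296). With slide as a block the unadjusted p was 0.072 for Fgfr1, 0.022 for Nr0b2 and 0.049 for Fgf21 (limma). Nr0b2 and Fgf21, each measured by 1 probe, were named after their values were seen.

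The cyclin D pathway was alike in this respect. Of 16 listed genes 13 had a named probe and 10 could be fitted, with 0 calls and 0 at an unadjusted p under 0.05 (limma), and the means had a median of 0.03 with 5 of 13 below 0. Among these 10 the largest differences were those of the transcription factor gene E2f1 (0.25 ± 0.18, SE), the CDK4 and CDK6 inhibitor gene Cdkn2c (0.20 ± 0.10), E2f3 (−0.18 ± 0.098, but 0.04 over spots well above background) and the retinoblastoma relative Rbl2 (−0.12 ± 0.18, but 0.08 over spots well above background and 0.02 with normexp correction). With slides 2 and 3 alone 0 of 13 were called and 3 (23.1%) had an unadjusted p under 0.05, where 15.5% of all genes did (limma). These were the CDK inhibitor gene Cdkn1a, measured by 1 probe and named after its values were seen (−0.81 ± 0.26, SE, adjusted p = 0.212), Rbl2 (−0.34 ± 0.13, adjusted p = 0.252) and E2f1 (0.32 ± 0.14, adjusted p = 0.296). With slide as a block their adjusted p was 0.342, 0.371 and 0.425 (limma).

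The genes whose log2 ratio ran most like that of the locus over the 14 mice, among 1765 genes outside chromosome 7 with at least 3 probes on each design, were Dnmt1 (Pearson r = 0.83), Arhgef10l (0.80), Rbfox3 (0.77), Mical3 (0.74) and Cdc42bpb (0.74). Dnmt1 encodes the maintenance DNA methyltransferase and Rbfox3 a neuronal splicing factor. They lie on chromosomes 9, 4, 11, 6 and 12. All 5 had a mean below 0, from −0.48 to −0.22, and share arrays, reference and the array-wide GC slope with the locus.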

How the data were processed

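Array comparative genomic hybridization was analysed for 21 tumours, grouped by the treatment in their titles. For each array the authors deposited spot intensities from Feature Extraction 11.0.1.1, both as raw means beside the local background and as processed signals that the software had background-subtracted, detrended and dye-normalized. The deposited log10 ratios (Cy5 over Cy3) served only to check direction. Log2 ratios after loess, with 11526 probes of which 35 lie in the locus, were deposited as 1 table for the series, with software not given in the sources used here. Its columns were matched by name, and 20 of 21 correlated best with their own array.

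Log2 ratios of processed signals (Cy3 over Cy5) were centred on the median of each array. Control and outlier-flagged spots were left out, and spots of a probe were averaged. The number of arrays limits precision. Probe sequences were matched exactly to GRCm38 (99.7% at a single place) for annotation and GC content, and positions are those of the files, in mm9.

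Single values were tested over mouse means by exact sign flips (16384) or splits (3432), adjusted over 8 tests by Benjamini-Hochberg. Only the leading number of the names marks a mouse, so p-values measure the spread between these units. Whole tables were fitted with limma (3.58.1, R 4.3.3): lmFit, duplicateCorrelation by mouse, then eBayes, two-sided, with an adjusted p of 0.05 as threshold. A gene is the mean of its probes on an array, and its level can shift with the design. Segments came from least-squares partitioning, where each added segment cost 3 noise variances multiplied by ln of the probe number. Other software was Python (3.11.15), scipy (1.17.1), numpy (2.4.6), numba (0.67.0) and pandas (2.3.3). The segmentation and the limma fit were tested on simulated data that held no GC slope and no offsets between probes.

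The members and gene lists were chosen with earlier results of these data known. Named were the 4 genes, listed genes with a probe in the locus, the 4 genes of each outside list with the largest group difference, the 3 highest and 3 lowest locus genes, and the 5 genes most like the locus. Alternatives covered normalization, background, dim spots, GC content, design, slide, boundaries and each mouse left out. Those on common probes after the probe GC fit, on the 2 dimmest arrays, on GC-corrected segments, on genes of slides 2 and 3 and on single core probes were chosen after seeing the data.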

Additional observations from a re-analysis of the deposited data

Results flagged for a closer look

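Across 14 groups of 4 to 7 mice, 2 held a mouse far from the others by the gap to its neighbour over the range of the group, and chance gives about 1 in 20 groups. In the anti-PD1 group the log2 ratio of the locus in mouse 2116 was −0.12, the highest of 7 mice. On slides 2 and 3 the Ccnd1 probe in mouse 1109 was at 0.13, the lowest of 6 anti-PD1 mice.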

How the results depend on the processing

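Locus minus rest of chromosome 7 stayed below 0 and past the threshold under all 12 alternatives (−0.22 to −0.05) and with each mouse left out (−0.22 to −0.21). Its group difference turned above 0 with normexp (0.0037), with the fit on probe and 50-kb GC content (0.0061) and without the 2 dimmest arrays (3.34e-06), and ran from −0.026 to 0.0040 with each mouse left out. The group difference of the locus log2 ratio was 0.0052 with normexp, 0.0090 with that GC fit and −0.041 to 0.0023 with each mouse left out. None of these group differences passed.

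Core minus rest of chromosome 7 depended on the probes. It was 0.034 with the authors' loess ratios, 0.021 with medians, 0.16 with the GC fit, 0.20 on common probes, 0.23 on common probes after the probe GC fit, −0.28 with no margin, −0.090 with the wider margin, −0.12 without the highest core probe and 0.065 without the lowest. The cause was not tested. Its group difference was 0.0086 with loess ratios and 0.0079 with the wider margin. Core minus the other locus probes was −0.071 with no margin. The difference in the share of called losses was −9.52 percentage points at an absolute mean of 0.1 and 0 after the fit on probe and 50-kb GC content.

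Frs2 turned to −0.17 over spots well above background and −0.0056 with the slide as a block (−0.027 to 0.13 with each mouse left out). E2f3 turned to 0.042 over such spots, and Rbl2 to 0.083 there and 0.016 with normexp (−0.28 to 0.040 with each mouse left out). Counts of probes, windows and genes past the threshold were 0 under every alternative run. No paired analysis was possible because each mouse belongs to a single group and a replicate number names only a sample. Single probes carry offsets as large as the changes of interest, and the core has at most 9 probes on an array.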
